A study of Homo sapiens with 27 samples.

Results

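The heat-shock chaperones described here were 10 human genes, HSP90AA1, HSP90AB1, STIP1, AHSA1, HSPA8, HSPH1, DNAJA1, DNAJB1, HSPD1 and HSPE1, followed in RM82 Ewing sarcoma cells with and without the kinase inhibitor SGC-CLK-1. The set was chosen by the counts of HSP90AA1 and STIP1, whose transcripts were lower with the inhibitor in these same libraries, so the difference of these 2 genes between the groups is given as a description, with no test. The other 8 genes were added for their known function, with earlier results of these data known. The 10 genes had 96 transcripts among the 93530 listed in the libraries. Of these, 33 held enough counts to be tested, and the 33 carried 97.9% of the counts of the 10 genes. The other 63 were too low, 48 of them with under 15 counts over all libraries.

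HSP90 is an abundant cytosolic chaperone that completes the folding of kinases, steroid receptors and other client proteins, and cells carry a heat-inducible form (HSP90AA1) and a mostly constitutive form (HSP90AB1). Clients reach it from the HSP70 system, in which a J-domain protein loads the client onto HSP70, and STIP1 (also called HOP) bridges HSP70 and HSP90 during the handover. Heat-shock factor 1 raises many of these genes together by binding inverted repeats of a short element in their promoters. HSPD1 and HSPE1 form the chaperonin of the mitochondrial matrix and are transcribed from a shared promoter region in opposite directions.

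The series tested molecular identifiers (UMIs) built from blocks of 3 identical bases, which let PCR and sequencing errors in the identifier be corrected before molecules are counted. RM82, a cell line from a Ewing sarcoma, a bone and soft-tissue tumour, was exposed for 24 h to SGC-CLK-1, an inhibitor of the CDC-like kinases that phosphorylate SR splicing factors, or to its solvent DMSO. There were 3 libraries per group and no genetic change in either group. The library totals were 666702, 362826 and 373004 UMI counts with SGC-CLK-1 and 416352, 523456 and 372876 with DMSO. The labels do not say whether the libraries of a group came from separate cultures. The paper's reporting summary gives at least 3 independent experiments, except where a legend differs, without naming these libraries. The p-values therefore measure the spread between these libraries, which may be technical. In bulk RNA, less RNA per cell and fewer cells of one kind cannot be told apart.

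Of 10 Ewing sarcoma markers, 9 had counts, with summed levels of 3310, 4032 and 4657 counts scaled to 1000000 counts per library (CPM) with SGC-CLK-1 and 3624, 4669 and 4428 CPM with DMSO. CAV1 was the most abundant of them and NKX2-2 was at 0 in the 6 libraries. Plasma cell markers were checked because myeloma lines are used elsewhere in the series. They summed to 90.0, 82.7 and 77.7 CPM against 84.1, 91.7 and 67.0 CPM, mostly from CD38. POU2AF1 had low counts in every library, and XBP1 and JCHAIN had low counts in some SGC-CLK-1 libraries only. SDC1, TNFRSF17, IRF4 and MZB1 were at 0. T cell markers, checked because the study also used Jurkat cells, summed to 7.50, 2.76 and 5.36 CPM with SGC-CLK-1 and 14.4, 15.3 and 16.1 CPM with DMSO. They came from 3 of 7 genes, mainly CD3G with at most 8 counts in a library, and CD3D, CD3E, CD2 and CD28 were at 0. Only CD3G was lower in the group in which the chaperones were lower, with 2, 1 and 1 counts against 6, 8 and 6. CD247 (3, 0 and 0 counts) and LCK (0, 0 and 1) had counts only with SGC-CLK-1. The part of these markers in the results was not tested.

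HSP90AA1, on chromosome 14 (GRCh38, chr14:102080742-102139699, minus strand), had gene sums of 1717, 2017 and 2335 CPM in the SGC-CLK-1 libraries and 3819, 4069 and 4489 CPM in the DMSO libraries. The highest treated library lay below the lowest control, and the mean was 2023 ± 309 CPM against 4126 ± 339 CPM (SD, n = 3 each). The difference in gene sums was -1.11 on the log2 scale (SE 0.18), a 2.15-fold lower level with the inhibitor.

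The lower HSP90AA1 level was seen on each of its 4 tested transcripts. HSP90AA1-201, the reference transcript for the protein, had 480, 318 and 369 counts with SGC-CLK-1 and 638, 859 and 671 with DMSO, a log2 difference of -0.94 (SE 0.19). HSP90AA1-202, whose first exon lies far upstream of the others, had 468, 306 and 359 against 628, 840 and 660 counts (log2 difference -0.96, SE 0.19). These 2 may not be separate measurements. In every library HSP90AA1-202 had between 96.2% and 98.4% of the count of HSP90AA1-201, and only 9.58% and 18.6% of their respective 25-base words were found in no other tested transcript of the gene. Whether a molecule that matches both was counted on both is not given in the sources used here.

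HSP90AA1-204, annotated as a target of nonsense-mediated decay, had 179, 104 and 123 counts with SGC-CLK-1 and 291, 396 and 302 with DMSO. The groups were apart, with a log2 difference of -1.35 (SE 0.19). HSP90AA1-203, a short coding transcript, had 9, 2 and 14 counts against 22, 25 and 20 (log2 difference -1.48, SE 0.40). Transcripts not annotated as coding made up 16.3%, 14.5% and 14.7% of the HSP90AA1 counts with the inhibitor and 19.0%, 19.1% and 19.3% with DMSO. When only coding transcripts were summed, the HSP90AA1 difference was -1.02 on the log2 scale (SE 0.18).

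**Figure D1:**
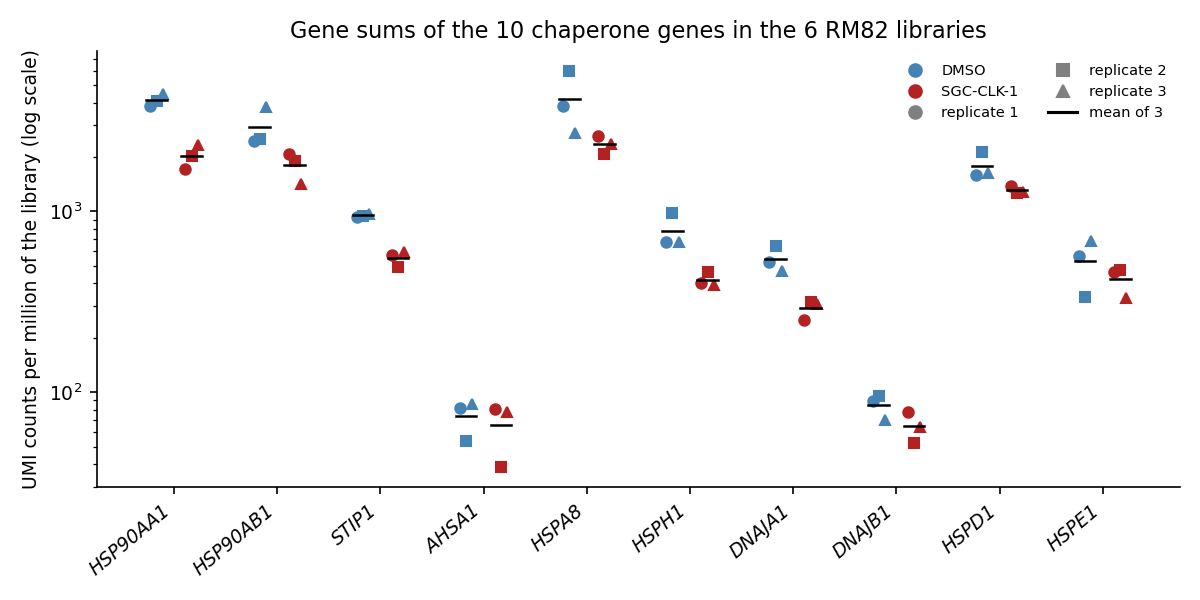
Gene sums of the 10 chaperone genes in UMI CPM (log axis), 1 point per library with the replicate number as the symbol, blue for DMSO, red for SGC-CLK-1 and a black bar for the mean of 3. HSP90AA1 lies at 1717 to 2335 CPM with SGC-CLK-1 and at 3819 to 4489 CPM with DMSO, and the groups of AHSA1, DNAJB1 and HSPE1 overlap.

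HSP90AB1, the constitutive cytosolic form (chr6:44246166-44253888, plus strand), had 2080, 1899 and 1426 CPM with SGC-CLK-1 and 2467, 2527 and 3760 CPM with DMSO. All 3 treated libraries lay below the controls, and the third control stood above the other two. The log2 difference of the gene sum was -0.77 (SE 0.22, 95% interval -1.20 to -0.35), which did not pass edgeR's quasi-likelihood test after Benjamini-Hochberg adjustment over all genes (adjusted p = 0.12). DESeq2 gave an adjusted p of 0.028. Its 4 tested transcripts, HSP90AB1-201 to HSP90AB1-204, all coding with 12 exons, differed by -0.65 to -0.70 on the log2 scale, with adjusted p between 0.055 and 0.073 in edgeR. HSP90AB1-203, the reference transcript, and HSP90AB1-201 had counts within 98.4% to 101% of each other in every library, so these 2 values may rest on the same molecules.

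Letters bound by heat-shock factors were found in promoter windows of 7 of the 10 genes, and the sequences are shown because 5 of the genes share the 3-unit form. RefSeq promoter windows (GRCh38.p14, 250 bases before and 50 after a start, 18 windows for the 10 genes) were searched for GAANNTTC and TTCNNGAA, each of which reads the same on both strands. Matches that overlap form a run of 3 or more units, called a run of 3 units here, and the 3 overlapping matches of HSPD1 form a longer run. In the lines below capitals mark the matched letters, each sequence is written 5′ to 3′ on the strand of its gene, and distances count from the start of its window's transcript. This is the start of the reference transcript for every gene shown but HSP90AB1. Not shown are a further run of HSPA8 (from -230 to -218), a further match of DNAJA1 (from -198 to -191) and a DNAJB1 match in the window of another start. Of the 3 windows of HSP90AB1, those at the start of HSP90AB1-203 (chr6:44247101) and at a start further upstream held no match. Its matches lie before an alternative start at chr6:44247943, in intron 1 of HSP90AB1-203 and 677 to 742 bases downstream of the start of that transcript.

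HSP90AA1 (chr14:102087090-102087147, minus strand, matches from -88 to -61): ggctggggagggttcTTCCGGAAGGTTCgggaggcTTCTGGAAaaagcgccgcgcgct
HSP90AB1 (chr6:44247763-44247805, plus strand, matches from -165 to -153 of the alternative start): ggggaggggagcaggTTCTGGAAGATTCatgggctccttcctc
HSP90AB1 (chr6:44247816-44247858, plus strand, matches from -112 to -100 of the alternative start): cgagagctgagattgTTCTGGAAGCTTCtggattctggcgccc
HSPA8 (chr11:123062164-123062206, minus strand, matches from -55 to -43): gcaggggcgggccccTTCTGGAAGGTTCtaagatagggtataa
HSPD1 (chr2:197500053-197500090, minus strand, matches from -245 to -228): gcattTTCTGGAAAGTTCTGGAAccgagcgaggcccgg
DNAJA1 (chr9:33025268-33025296, plus strand, matches from 4 to 16): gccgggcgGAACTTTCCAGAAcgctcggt
DNAJB1 (chr19:14518422-14518489, minus strand, matches from -77 to -40): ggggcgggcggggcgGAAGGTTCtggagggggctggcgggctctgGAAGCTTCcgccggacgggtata
STIP1 (chr11:64186173-64186202, plus strand, match from 14 to 21): cttctagtaggTTCCAGAAggcggcgcgtg

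At least 1 of the 2 motifs was found in any window for 7 of the 10 genes, against 16.2% of the 27305 genes with a window, and a run of 3 units for 5 genes (HSP90AA1, HSP90AB1, HSPA8, HSPD1 and DNAJA1), against 0.608% of genes. Of the 18 windows of the 10 genes, 8 held a motif and 5 a run of 3 units, against 13.5% and 0.490% of all 35116 windows. In the window at the start of the reference transcript, which 9 of the 10 genes had, a motif was found for 6 and a run of 3 units for 4. For reference starts alone a share over all genes is not given. These letters were not found in the windows of HSPH1, HSPE1 or AHSA1, and the HSPH1 window is not at the start of its reference transcript. The run of HSPD1 (chr2:197500053-197500090) also lies upstream of HSPE1, but outside the HSPE1 window (chr2:197500129-197500428). The log2 differences of the gene sums were -1.11, -0.77, -0.90, -0.53 and -0.98 for HSP90AA1, HSP90AB1, HSPA8, HSPD1 and DNAJA1, with a 3-unit run in a window, -0.85 and -0.44 for STIP1 and DNAJB1, with shorter matches, and -0.98, -0.40 and -0.20 for HSPH1, HSPE1 and AHSA1, with none. Whether motif and difference go together was not tested. A match of letters does not show binding, and binding was not measured.

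STIP1, the bridge between HSP70 and HSP90 (chr11:64185272-64204543, plus strand), had gene sums of 576, 491 and 592 CPM with SGC-CLK-1 and 937, 940 and 974 CPM with DMSO. The groups were well apart, with a log2 difference of -0.85 (SE 0.18), given as a description. Most of this difference sat on 1 transcript, whose mean was 39.9 CPM with SGC-CLK-1 and 369 CPM with DMSO, while the gene sum had means of 553 and 950 CPM. STIP1-202 (ENST00000355603), annotated as a retained intron with 2 exons and 528 bases, had 27, 18 and 11 counts with SGC-CLK-1 and 138, 159 and 176 with DMSO, a log2 difference of -3.19 (SE 0.26). The lowest control count was 138 and the highest treated count 27, so the groups were far apart.

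The 2 main coding transcripts of STIP1 lay much closer together in the groups. STIP1-201, the reference transcript with 14 exons, had 217, 187 and 233 CPM with SGC-CLK-1 and 243, 248 and 185 CPM with DMSO, so the groups overlapped and the log2 difference was -0.08 (SE 0.21). STIP1-203 lay at -0.06 (SE 0.21), with 96.0% to 98.6% of the count of STIP1-201 in each library. STIP1-207, another coding transcript, had 73.5, 44.1 and 75.1 CPM against 101, 111 and 91.2 CPM, with the treated libraries below the controls (log2 difference -0.63, SE 0.26). Summed over coding transcripts alone, STIP1 stood at 526, 441 and 555 CPM with SGC-CLK-1 and 588, 617 and 475 CPM with DMSO, which overlapped, with a log2 difference of -0.20 (SE 0.19). The share of STIP1 counts on transcripts not annotated as coding was 8.59%, 10.1% and 6.33% with SGC-CLK-1 and 37.2%, 34.3% and 51.2% with DMSO. STIP1-201 and STIP1-203 had near-equal counts, and a molecule counted on both would enter the gene sums and these shares more than once. Whether this occurred was not tested. STIP1-210, a short coding transcript named after its values were seen, went the other way with 9, 8 and 5 counts against 1, 4 and 1, too few for the test.

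**Figure D2:**
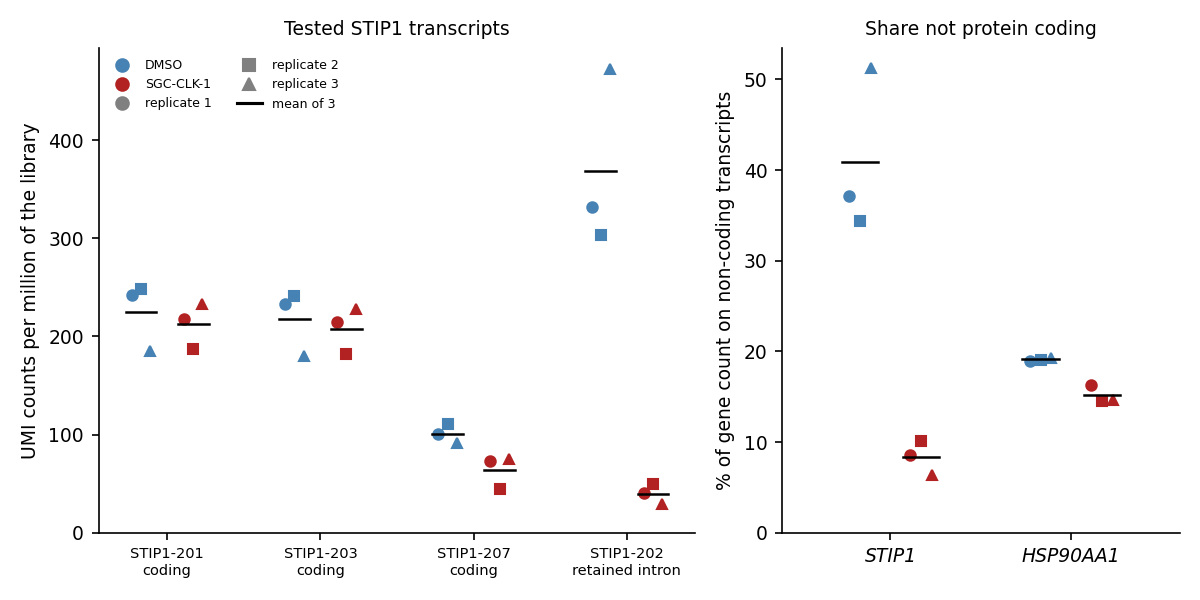
Left, UMI CPM for the 4 tested STIP1 transcripts; right, percent of the STIP1 and HSP90AA1 counts on transcripts not annotated as protein coding; points are libraries (symbol, replicate; blue, DMSO; red, SGC-CLK-1) and bars the mean of 3. STIP1-201 and STIP1-203 overlap between the groups, while STIP1-202 lies far lower with SGC-CLK-1 and the mean non-coding share of STIP1 is 40.9% with DMSO and 8.35% with SGC-CLK-1.

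STIP1-202 starts inside an intron of the coding transcripts, runs through 471 intron bases into exon 11 of STIP1-201 (37 bases), and ends with 20 bases of the next exon. The border between the retained intron and exon 11 is shown because STIP1-202, which carries most of the STIP1 difference, is annotated with this intron sequence. The line, read from the GRCh38 genome, gives the last 60 intron bases in lower case and exon 11 in capitals.

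STIP1 intron end and exon 11 (chr11:64202816-64202912, plus strand): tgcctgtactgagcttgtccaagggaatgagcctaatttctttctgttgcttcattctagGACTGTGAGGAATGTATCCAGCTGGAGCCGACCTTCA

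In contrast to HSP90AA1-201, 93.1% of the 25-base words of STIP1-202 are in no other tested STIP1 transcript, so its counts could be told apart from those of the coding transcripts. The deposited counts do not say which strand or which part of STIP1-202 the reads covered.

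AHSA1, which stimulates the ATPase of HSP90, was measured with little precision. Its gene sum was 81.0, 38.6 and 77.7 CPM with SGC-CLK-1 and 81.7, 53.5 and 85.8 CPM with DMSO, overlapping, at a log2 difference of -0.20 (SE 0.35, 95% interval -0.89 to 0.49, edgeR adjusted p = 0.85). Its tested transcript, AHSA1-201, lay at -0.26 (SE 0.34, adjusted p = 0.74). The interval includes differences as large as that of HSP90AB1.

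HSPA8, the constitutive cytosolic HSP70 (chr11:123057489-123063230, minus strand), had 2616, 2070 and 2357 CPM with SGC-CLK-1 and 3821, 6014 and 2719 CPM with DMSO. The groups did not overlap, but the controls spread widely and the second one stood far above the others. The log2 difference was -0.90 (SE 0.24, 95% interval -1.37 to -0.44), with an adjusted p of 0.10 in edgeR and 0.012 in DESeq2. Without DMSO replicate 2 it was -0.55. Of its 7 tested transcripts, all lower, 3 coding ones fell past the threshold in edgeR. The reference transcript HSPA8-224, with 27.5% and 25.9% of the gene in the treated and control groups, lay at -0.77 (adjusted p = 0.057) and HSPA8-201 at -0.75 (adjusted p = 0.067), both with overlapping groups and neither past it. Without DMSO replicate 2 these 2 were at -0.36 and -0.34. HSPA8-222 had 107, 44 and 27 counts against 100, 194 and 78 (log2 difference -1.18, SE 0.25, adjusted p = 0.0084) and HSPA8-221 lay at -1.15 (SE 0.25, adjusted p = 0.0086). HSPA8-218, which held 25.0% of the gene in DMSO, was at -0.79 (SE 0.23, adjusted p = 0.049), with overlapping groups. Of the words of HSPA8-222, HSPA8-221 and HSPA8-218, 0.0%, 1.11% and 5.00% were their own, so the 3 calls may rest on the same molecules. HSPA8-218 was not called by DESeq2 (adjusted p = 0.073) and passed in only 1 of the 6 edgeR fits that left out a library, with -0.39 without DMSO replicate 2.

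HSPH1, a large HSP70 relative that exchanges the nucleotide on HSP70 (chr13:31134973-31162388, minus strand), had 402, 460 and 391 CPM with SGC-CLK-1 and 677, 980 and 681 CPM with DMSO. All treated libraries lay below all controls. The gene sum differed by -0.98 on the log2 scale (SE 0.20, 95% interval -1.38 to -0.58), and narrowly missed the threshold in edgeR (adjusted p = 0.053), while DESeq2 gave 0.0019. Its 5 tested transcripts were all lower, and 4 fell past the threshold, HSPH1-201, HSPH1-202, HSPH1-206 and HSPH1-209, with log2 differences of -0.92, -1.04, -0.86 and -0.86 and adjusted p of 0.022, 0.022, 0.034 and 0.042 in edgeR. HSPH1-206 is annotated as a target of nonsense-mediated decay and the others as coding. At most 0.694% of the words of any HSPH1 transcript were its own, so the 4 calls may rest on the same molecules. HSPH1-204 lay at -0.86 (adjusted p = 0.054) and did not pass. Each of the 4 passed in only 1 of the 6 edgeR fits that left out a library, the fit without DMSO replicate 3. DESeq2 called HSPH1-201 (adjusted p = 0.038) and not HSPH1-202, HSPH1-206 or HSPH1-209 (0.051, 0.066 and 0.093).

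DNAJA1, a J-domain protein that delivers clients to HSP70 (chr9:33025273-33039907, plus strand), had 250, 314 and 308 CPM with SGC-CLK-1 and 526, 640 and 467 CPM with DMSO, with no overlap. The gene sum differed by -0.98 (SE 0.20, 95% interval -1.38 to -0.59, edgeR adjusted p = 0.053, DESeq2 adjusted p = 0.0024). Its only tested transcript, DNAJA1-201, carried 97.2% and 98.4% of the gene in the treated and control groups and fell by 0.93 on the log2 scale (SE 0.20, edgeR adjusted p = 0.0084). DNAJB1, a strongly heat-inducible J-domain protein, had 78.0, 52.4 and 64.3 CPM against 88.9, 95.5 and 69.7 CPM, which overlapped (log2 difference -0.44, SE 0.30, 95% interval -1.02 to 0.14, adjusted p = 0.56). DNAJB1-201, with 95.5% and 91.6% of the gene, lay at -0.32 (SE 0.26, adjusted p = 0.57).

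HSPD1, the large chaperonin subunit of mitochondria (chr2:197486584-197516737, minus strand), had 1381, 1268 and 1273 CPM with SGC-CLK-1 and 1588, 2142 and 1639 CPM with DMSO. The groups did not overlap, with a log2 difference of -0.53 (SE 0.18, 95% interval -0.88 to -0.17), and the adjusted p was 0.19 in edgeR and 0.10 in DESeq2. The main coding transcripts, HSPD1-202 and HSPD1-201, lay at -0.42 and -0.41 (edgeR adjusted p = 0.26 and 0.27), and at -0.23 and -0.22 without DMSO replicate 2. A retained-intron transcript, HSPD1-213, fell by 1.10 on the log2 scale (SE 0.30, edgeR adjusted p = 0.031), from 35, 28 and 31 counts with DMSO to 22, 13 and 12. It made up 4.29% of the gene in DMSO. HSPD1-213 passed in only 1 of the 6 edgeR fits that left out a library, and DESeq2 gave it no adjusted p.

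HSPE1, the co-chaperonin lid of HSPD1 (chr2:197500140-197503449, plus strand), had 460, 471 and 330 CPM against 567, 336 and 689 CPM. The groups overlapped widely, and the log2 difference was -0.40 (SE 0.26, 95% interval -0.91 to 0.10, adjusted p = 0.53). Its retained-intron transcript HSPE1-204 lay at -0.07 (SE 0.35, adjusted p = 0.95), while HSPE1-201 and HSPE1-202, both coding, lay at -0.40. Without DMSO replicate 3 the gene sum was at -0.15, HSPE1-201 at -0.22 and HSPE1-202 at -0.19, and without DMSO replicate 2 they were at -0.66, -0.62 and -0.65.

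**Figure D3:**
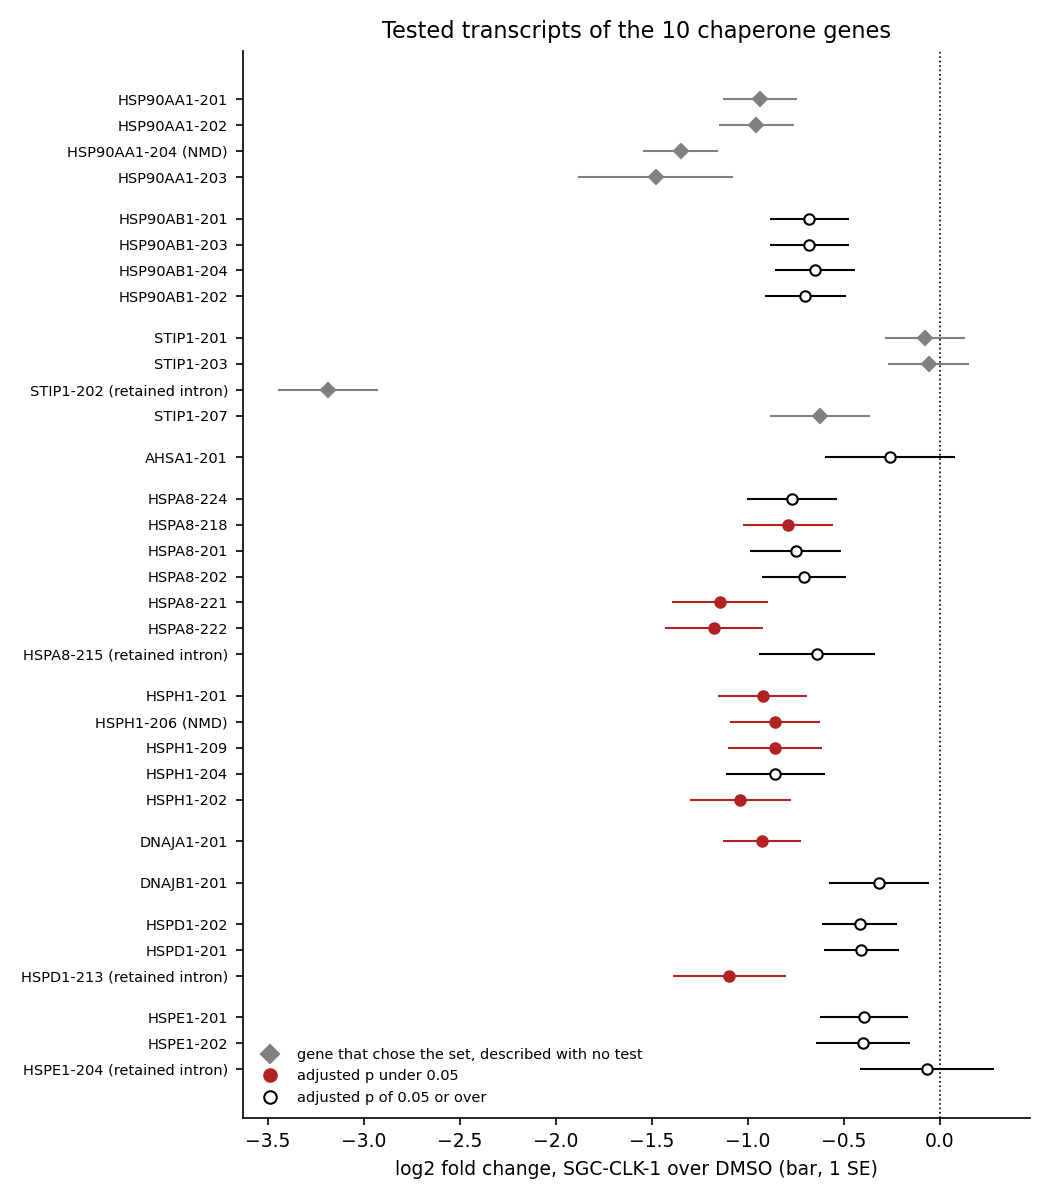
Log2 fold change of SGC-CLK-1 over DMSO for the 33 tested transcripts of the 10 genes, with 1 SE as the bar; grey diamonds are the genes that chose the set, red points passed an adjusted p of 0.05 in edgeR and open points did not. All points lie below 0, STIP1-202 lies lowest at -3.19, and STIP1-201 and STIP1-203 lie beside 0.

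Over the 8 genes added for their function, 0 gene sums passed the threshold in edgeR in either direction, where 0.315% of the 6344 genes tested were called and 0.126% were called lower. At an unadjusted p under 0.05, 5 of the 8 were lower, against 6.92% of all genes, and none was higher. DESeq2 called 4 of the 8 lower (HSP90AB1, HSPA8, HSPH1 and DNAJA1), against 1.04% of all genes. The groups did not overlap for 5 of the 8, all lower with SGC-CLK-1, against 7.66% of genes. The median log2 difference was -0.65 over the 8 and 0.00 over all genes.

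At the level of transcripts, all 25 tested transcripts of the 8 genes had a log2 difference below 0. In edgeR 9 of the 25 fell past the threshold, against 2.1% of the 7840 transcripts tested (3.95% in either direction), and 0 rose. Groups were apart and lower for 16 of the 25, against 11.7% of transcripts. DESeq2 called 4 of the 25, 4 others having no adjusted p, against 0.931% of transcripts. As transcripts of 1 gene can share molecules, these are given as 4 genes (HSPA8, HSPH1, DNAJA1 and HSPD1), not 9 separate results. Leaving out 1 library changed the count from 9 to between 0 and 11, in fits that tested 8442 to 9406 transcripts in place of 7840. None was called without SGC-CLK-1 replicate 2 and only DNAJA1-201 without SGC-CLK-1 replicate 3. Calls were left on 2 HSPA8 transcripts without SGC-CLK-1 replicate 1, and on 3 transcripts of HSPA8 and DNAJA1 without DMSO replicate 1. The direction of DNAJA1, HSPH1, HSPA8 and HSPD1-213 was kept in each of these fits.

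Transcript usage, the change of 1 transcript relative to the others of its gene, could be tested for 5 of the 8 genes. None passed in the test of diffSpliceDGE, where 0.277% of 1804 genes did, and the adjusted p was 1.00 for HSP90AB1, HSPA8, HSPH1, HSPD1 and HSPE1. The share of counts on transcripts not annotated as coding was compared for 6 genes by exact two-sided permutation tests, which cannot give p under 0.1 with 3 libraries a group. HSPH1 had 27.6% ± 1.9 with SGC-CLK-1 and 26.0% ± 1.0 with DMSO (exact p = 0.2), HSPE1 19.8% ± 4.1 and 13.7% ± 2.6 (exact p = 0.2), and HSPD1 4.20% ± 0.36 and 6.28% ± 2.4 (exact p = 0.4; SD, n = 3 each, and 0.6 after adjustment over the 6 genes for all 3). AHSA1, HSPA8 and DNAJA1 differed by 2.94, -0.16 and 1.26 percentage points (exact p = 0.9, 0.8 and 0.3). The STIP1 shares above differed by -32.6 percentage points in the mean, while HSPE1 had the largest difference among these 6 genes, 6.10 points. This contrast between genes was not tested.

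To ask whether the wider heat-shock set moved together, 109 further chaperone genes were taken by function in 7 lists, with earlier results known, of which 100 had counts and 54 were tested. Of the 54, 30 lay below 0 and 24 above, with a median log2 difference of -0.07. In edgeR 0 gene sums passed in either direction, with 11 lower and 1 higher at an unadjusted p under 0.05 (6.92% of all genes were lower), and DESeq2 called 3 lower (DNAJC2, CACYBP and HSP90B1), against 1.04% of all genes. At the transcript level 8 of 80 fell past the threshold in edgeR and 0 rose, against 2.1% of all transcripts lower, and the 8 belonged to 5 genes. DESeq2 called 3 of the 80, against 113 of all 7840 transcripts in either direction and 0.931% lower. In edgeR none was left without SGC-CLK-1 replicate 2 or SGC-CLK-1 replicate 3, 1 without DMSO replicate 1, 2 without SGC-CLK-1 replicate 1 and 5 without DMSO replicate 3.

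**Figure D4:**
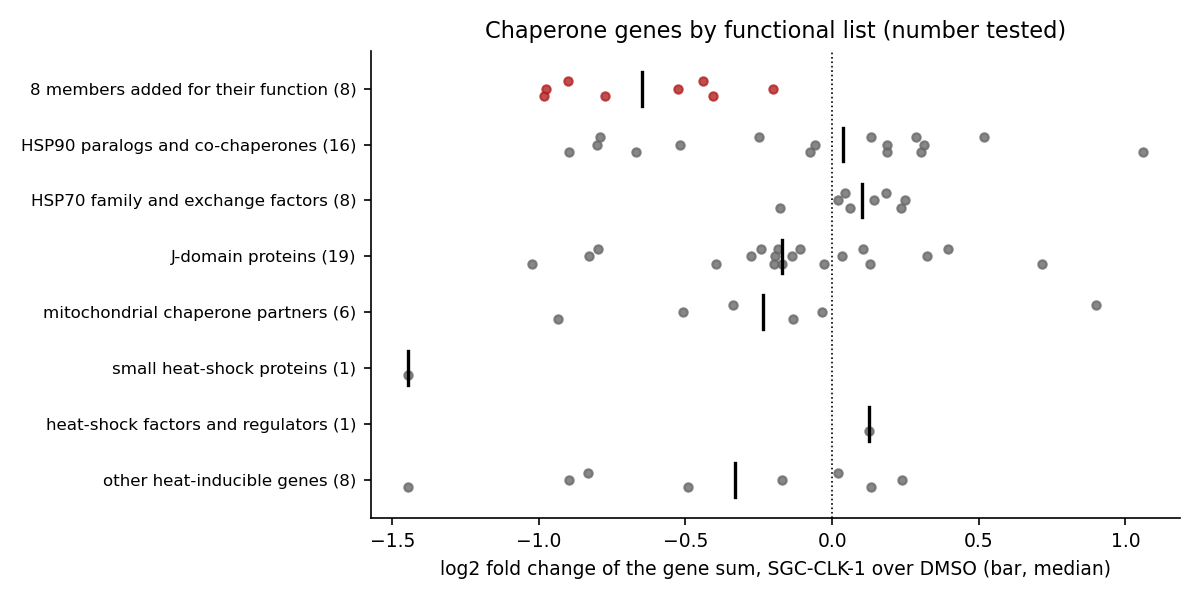
Log2 fold change of the gene sum, SGC-CLK-1 over DMSO, for the 8 chaperone genes added for their function (red) and the tested genes of 7 wider lists (grey), 1 point per gene and a black bar for the median; a gene in 2 lists is drawn in both. The 8 genes have a median of -0.65 and the wider lists lie on both sides of 0, with a median of 0.10 for the HSP70 family and -0.17 for the J-domain proteins.

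Among 16 tested HSP90 paralogs and co-chaperones, 8 lay below and 8 above 0 (median 0.04). HSP90B1, the HSP90 of the endoplasmic reticulum, had 960, 1047 and 796 CPM with SGC-CLK-1 and 1607, 1192 and 1446 CPM with DMSO, apart, at -0.67 (SE 0.19, edgeR adjusted p = 0.12). Its transcripts HSP90B1-210 and HSP90B1-211 fell by 0.78 and 0.86 (adjusted p 0.042 and 0.030 in edgeR). CHORDC1, an HSP90 co-chaperone, lay at -0.90 (SE 0.27, adjusted p = 0.14), and CHORDC1-201 fell by 1.04 (SE 0.28, adjusted p = 0.030 in edgeR). At the other end AHSA2P, a pseudogene related to AHSA1, had 46.5, 27.6 and 37.5 CPM against 12.0, 13.4 and 26.8 CPM (log2 difference 1.06, SE 0.50, adjusted p = 0.37) and PIH1D1 lay at 0.52. NUDC lay at -0.80.

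The J-domain proteins had 13 of 19 tested genes below 0 (median -0.17). DNAJC2, which works at the ribosome, had 307, 336 and 338 CPM with SGC-CLK-1 and 689, 449 and 754 CPM with DMSO, a log2 difference of -1.02 (SE 0.22, adjusted p = 0.053 in edgeR and 0.0038 in DESeq2). Its transcripts DNAJC2-203 (coding), DNAJC2-207 and DNAJC2-208 (both retained introns) fell by 0.98, 0.95 and 0.91, with adjusted p of 0.015, 0.036 and 0.029 in edgeR. DNAJA2, a relative of DNAJA1, lay at -0.83 (SE 0.28, adjusted p = 0.19), and DNAJA2-201 fell by 0.99 (adjusted p = 0.034 in edgeR). DNAJC16 and DNAJC9 had the highest differences, 0.72 and 0.40, neither past the threshold.

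In the HSP70 family and its exchange factors 7 of 8 tested genes lay above 0 (median 0.10), unlike HSPA8 and HSPH1. HSPA4, a close relative of HSPH1, had 67.5, 113 and 91.2 CPM with SGC-CLK-1 and 69.7, 74.5 and 69.7 CPM with DMSO (log2 difference 0.25, SE 0.30, adjusted p = 0.77). The mitochondrial HSP70, HSPA9, lay at 0.23 (SE 0.24), HSPA5 of the endoplasmic reticulum at -0.18 (SE 0.29) and HSPA4L, among the lowest in the list, at 0.02. The difference between these genes and HSPA8 was not tested.

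Of 6 mitochondrial chaperone partners, 5 lay below 0 (median -0.24). TIMM44, which anchors the import motor, lay at -0.93 (SE 0.30, adjusted p = 0.16) and HSCB at -0.51, while the protease LONP1 stood at 148, 182 and 228 CPM with SGC-CLK-1 and 122, 107 and 51.0 CPM with DMSO (log2 difference 0.90, SE 0.30, adjusted p = 0.19). CLPP lay at -0.03. Of the small heat-shock proteins only HSPB1 was tested, with 22.5, 0 and 16.1 CPM against 57.6, 26.7 and 26.8 CPM (log2 difference -1.45, SE 0.68, adjusted p = 0.36). The only heat-shock factor or regulator with enough counts was HSBP1 (0.12, SE 0.35).

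Of the 18 counted genes of the other heat-inducible list 8 were tested, and 5 of the 8 lay below 0 (median -0.33). HSPA1A, HSPA1B and BAG3 were among the genes too low to test. At an unadjusted p under 0.05 in edgeR 4 were lower and 0 higher, against 6.92% of all genes lower. CACYBP, a regulator of protein turnover, had 288, 289 and 373 CPM with SGC-CLK-1 and 507, 558 and 536 CPM with DMSO, apart, at -0.83 (SE 0.20, adjusted p = 0.075 in edgeR and 0.011 in DESeq2), and CACYBP-201 fell by 0.74 (SE 0.21, adjusted p = 0.035 in edgeR). FKBP4, an HSP90 co-chaperone, lay at 0.13 (SE 0.44).

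The genes whose log2 CPM followed HSP90AA1 most closely over the 6 libraries were HEXA, CHD2 and THAP5 (Pearson r of 0.989, 0.987 and 0.981), and those nearest to STIP1 were MRPL3, GGPS1 and ANXA1 (0.993, 0.993 and 0.988). None is among the chaperones described here. With 6 libraries in 2 groups these values mainly reflect the difference between the groups and are given as a description.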

How the data were processed

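RM82 cells were measured in 6 libraries, 3 exposed to SGC-CLK-1 and 3 to DMSO. The authors deposited UMI counts per transcript, unnormalized, 1 library per file. Per the study's methods, nanopore reads were base called with Guppy, mapped to human transcripts (hg38) with minimap2 under settings that allow secondary alignments, and deduplicated by UMI. The submitters' processing notes name minimap2 2.22 and featureCounts 2.0.1. The sources used here do not state which UMI correction made these counts, and the labels name an Illumina library kit, so the platform of these files rests on the methods. Transcripts absent from a file counted as 0.

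Of 93530 identifiers, 86362 matched GENCODE release 44, which gave symbols and classes. Counts were tested in R 4.3.3 with edgeR 4.0.16 (filterByExpr, minimum count 10, minimum total count 15, TMM, quasi-likelihood F-test, Benjamini-Hochberg over all features, threshold 0.05), per transcript, per gene sum and for usage (diffSpliceDGE). SEs are the log2 difference divided by the root of F, and 95% intervals are 1.96 SEs. As 1.96 is a normal quantile, these intervals are narrower than the F-test with few libraries would give. CPM were scaled to 1000000 by the library total. A molecule counted on more than 1 transcript of a gene would enter its gene sum, and shares of the gene, more than once. Shares were tested with scipy 1.17.1. DESeq2 1.42.0, other scaling and filters, a replicate block, coding transcripts alone and leaving out each library were alternatives. Functions were tested on simulated data.

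Named were the 10 gene sums, their transcripts with at least 10% of a gene or past the test, wider-list genes past a test or else the 2 lowest and 2 highest of a list, and the 3 genes most alike HSP90AA1 and STIP1. One gene that this rule names is not reported here. The members and lists were chosen with earlier results of these data known. Counts on processed pseudogenes were up to 4.72% of the parent gene (HSPE1) and were not added. The 4 value columns of another table, which match no sample label, the reports on identifiers and the other files were not used here.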

Additional observations from a re-analysis of the deposited data

How the results depend on the processing

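Every one of the 10 gene sums stayed below 0 under each alternative, apart from AHSA1 without SGC-CLK-1 replicate 2. With DESeq2, no filter on low counts, or at least 10 counts in every library, the calls among all transcripts (310) came to 113, 162 and 173 and those among all gene sums (20) to 107, 169 and 64. Of the gene sums of the 8 genes other than HSP90AA1 and STIP1 (0 called), the same settings called 4, 4 and 2 lower, and coding transcripts alone called 1. Of their transcripts (9 of the 25 tested called lower), DESeq2 called 4 of the 25, and 3 were called with no filter, where 93530 transcripts were tested. In the wider lists DESeq2 called 3 gene sums (0) and 3 transcripts (8). Usage calls (5) came to 1 with at least 10 counts in every library. The causes were not tested, and these filters test fewer or more features.

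Leaving out 1 library gave 81 to 363 transcripts, 1 to 21 gene sums, 0 to 11 lower transcripts and 0 to 1 lower gene sums of the 8 genes. It gave 0 to 1 gene sums and 0 to 8 transcripts of the wider lists, and 1 to 5 usage genes. The non-coding share had groups apart for 2 to 5 genes. With all libraries these were 2 genes, HSP90AA1 and STIP1, which chose the set, and a share over all genes is not given. A group left with 2 libraries was fitted with the pooled spread.

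Differences that changed sign when a library was left out lay between -0.26 and -0.06 with all libraries. AHSA1 lay between -0.42 and 0.041 as a gene sum (0.041 without SGC-CLK-1 replicate 2) and between -0.73 and 0.021 for AHSA1-201. STIP1-201 lay between -0.22 and 0.023 (0.023 without SGC-CLK-1 replicate 2, 0.0038 without DMSO replicate 2), STIP1-203 between -0.20 and 0.045 (0.045 and 0.024) and HSPE1-204 between -0.52 and 0.28 (0.059 and 0.14 without SGC-CLK-1 replicates 2 and 3, 0.0082 and 0.28 without DMSO replicates 1 and 3).

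Deviations of same-numbered libraries from their group means correlated at 0.06, 0.09 and -0.0040. With 3 libraries a group these values cannot decide whether same-numbered libraries were paired, and the labels do not say. With the replicate number as a block, 36 of 6344 gene sums and 427 of 7840 transcripts were called in either direction (20 and 310 without it). Of the 8 genes, 2 gene sums and 14 of the 25 transcripts were called lower.

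Low counts limit AHSA1 and DNAJB1, each with under 100 CPM in every library. Among the wider lists, 46 of 100 counted genes were too low to test, and of 9 small heat-shock proteins 3 were counted and 1 tested.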
